A study of Homo sapiens with 6 samples.

Results

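The ATF4 amino acid stress response is read here through 37 genes listed by name: 8 transcription factors, 5 stress effectors, 6 enzymes of serine and folate synthesis, 4 other amino acid enzymes, 6 amino acid transporters, and 8 genes of tRNA charging and tRNA export. The list was chosen with earlier results of these data known. Shares of its members set beside all genes are therefore descriptions. Each gene was represented by the probe set with 1 annotated symbol and the highest mean over the 6 arrays, which gave 36 members of 18417 genes; GPT2 is not analysed here. Whole-transcript Affymetrix arrays were hybridised with 100 ng of total RNA from human cancer cell lines, with 1 array for each of 6 groups. The groups were HCT116 (colon cancer) with NRF3 siRNA or control siRNA, its p53-deficient derivative HCT116-p53KO with NRF3 siRNA or control siRNA, both collected 48 h after transient transfection, and H1299 (non-small cell lung carcinoma) stably carrying an NRF3 or a GFP plasmid under G-418. NFE2L3 encodes NRF3, a transcription factor of the CNC family. The siRNA sequences, and whether the H1299 lines are clones, are not stated in the sources used here.

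ATF4 is a basic leucine zipper transcription factor whose mRNA is translated more when the initiation factor eIF2alpha is phosphorylated, as happens when amino acids are scarce, proteins misfold in the endoplasmic reticulum or mitochondria fail. It dimerises with C/EBP-family and other partners and raises genes that import amino acids, make serine, glycine and asparagine, feed the mitochondrial folate cycle and charge tRNAs. Its longer-lasting targets include CHOP (DDIT3), TRIB3 and CHAC1, which limit the response or turn it towards cell death, and DDIT4, which restrains mTORC1.

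ATF4 and C/EBP partners are known to bind a composite element whose core reads TGATGNAA, where N is any base. A search of both strands of the RefSeq promoter windows of GRCh38.p14, each running from 250 bases before to 50 bases after a start site, found this core in 12 of the 32 members with a window. By window, 12 of 51 member windows (23.5%) held it, against 1270 of 35116 windows of all genes (3.62%). These shares are a description, since the members are listed as genes of the ATF4 response. The 4 members without a window were NUPR1, PSPH, SHMT2 and ALDH1L2. By class, the core lay in windows of 3 transcription factors, 1 stress effector, 1 amino acid enzyme, 3 transporters and 4 tRNA synthetases, and in none of the 3 serine and folate genes that had a window. The 12 stretches are shown because they let the shared letters be compared; each is written 5′ to 3′ in the direction in which the core reads TGATGNAA, the core is in capitals, and the flanks hold 10 bases except where the window of SLC3A2 ended. The core was TGATGCAA in 7 members, TGATGAAA in 3, TGATGGAA in 1 and TGATGTAA in 1.
ATF3, chr1:212565206-212565233, plus strand: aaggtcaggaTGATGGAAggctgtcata
CEBPG, chr19:33374061-33374088, plus strand: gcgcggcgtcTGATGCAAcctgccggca
JDP2, chr14:75427996-75428023, plus strand: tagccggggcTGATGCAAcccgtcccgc
CHAC1, chr15:40953252-40953279, minus strand: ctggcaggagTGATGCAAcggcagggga
ASNS, chr7:97872459-97872486, minus strand: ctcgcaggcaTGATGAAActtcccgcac
SLC3A2, chr11:62881726-62881748, minus strand: ggagcTGATGTAAggagtcctgc
SLC1A5, chr19:46784894-46784921, minus strand: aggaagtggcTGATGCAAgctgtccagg
SLC7A1, chr13:29595664-29595691, minus strand: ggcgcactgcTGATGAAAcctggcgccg
GARS1, chr7:30594835-30594862, minus strand: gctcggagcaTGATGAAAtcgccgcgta
NARS1, chr18:57621805-57621832, minus strand: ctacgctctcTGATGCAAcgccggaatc
MARS1, chr12:57488054-57488081, minus strand: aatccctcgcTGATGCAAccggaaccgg
AARS1, chr16:70289676-70289703, plus strand: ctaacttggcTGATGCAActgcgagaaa

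The whole windows of ASNS and CHAC1 follow on the strand of each gene, because ASNS was among the members highest in every NRF3 comparison and CHAC1 parted the HCT116 lines most. In ASNS the core began 68 bases before the start site. In CHAC1 it lay at 209 bases before the start site and reads in the opposite direction to the gene, so the capitals there spell its reverse complement. A match of letters is a description and says nothing of binding.
ASNS, chr7:97872359-97872658, minus strand: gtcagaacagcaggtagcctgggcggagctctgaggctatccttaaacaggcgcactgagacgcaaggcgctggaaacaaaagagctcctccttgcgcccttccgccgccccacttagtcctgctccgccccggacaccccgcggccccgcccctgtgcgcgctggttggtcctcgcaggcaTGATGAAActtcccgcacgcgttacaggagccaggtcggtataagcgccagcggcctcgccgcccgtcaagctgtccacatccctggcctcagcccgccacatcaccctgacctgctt
CHAC1, chr15:40953221-40953520, plus strand: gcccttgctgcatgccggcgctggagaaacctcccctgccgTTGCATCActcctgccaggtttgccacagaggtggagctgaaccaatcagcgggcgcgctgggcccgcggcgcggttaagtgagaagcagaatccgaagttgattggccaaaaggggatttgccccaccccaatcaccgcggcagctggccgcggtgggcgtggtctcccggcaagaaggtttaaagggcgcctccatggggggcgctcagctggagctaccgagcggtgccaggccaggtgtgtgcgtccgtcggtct

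NFE2L3 itself checked the labels. It stood at 6.62 on the NRF3 siRNA array and 8.97 on the control array of HCT116, at 7.15 and 8.71 on those of HCT116-p53KO, and at 10.20 with NRF3 and 8.18 with GFP in H1299 (RMA log2 intensities, the scale of every level below). The epithelial adhesion gene EPCAM was at 10.91 to 11.42 on the 4 HCT116-family arrays and at 3.74 and 3.98 in H1299. The mesenchymal filament gene VIM was at 12.08 and 12.45 in H1299. Not every marker parted the lines in this way. SNAI2, also a mesenchymal marker, lay above 6 on each HCT116-family array and at 4.53 and 4.85 in H1299. Levels of the mesenchymal markers FN1 and TWIST1 and of the epithelial keratin KRT18 overlapped between the HCT116 family and H1299. The intestinal genes VIL1 and KRT20 lay under 6 on every array. A level of 6 or more was reached by 72.6% to 75.2% of genes on HCT116-family arrays but by 58.7% and 59.8% on H1299 arrays. The sorted values of the H1299 arrays lay 0.779 to 0.805 from the others on average. Apart from these line markers, levels were therefore compared only within H1299 and within the HCT116 family. Because a group is a single array, differences inside a cell line carry neither a replicate check nor a p-value. Each array averages a whole culture, so fewer cells expressing a gene and less RNA per cell cannot be told apart.

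Most members had intensities above the filter used below. On each HCT116-family array 34 of the 36 reached 6, and in H1299 33 did so with NRF3 and 29 with GFP. ALDH1L2, a mitochondrial folate dehydrogenase, and VLDLR, a lipoprotein receptor, were the 2 members under 6 in every HCT116-family culture. The members under 6 with GFP but not with NRF3 were DDIT4, STC2, ALDH1L2 and CTH.

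**Figure D1:**
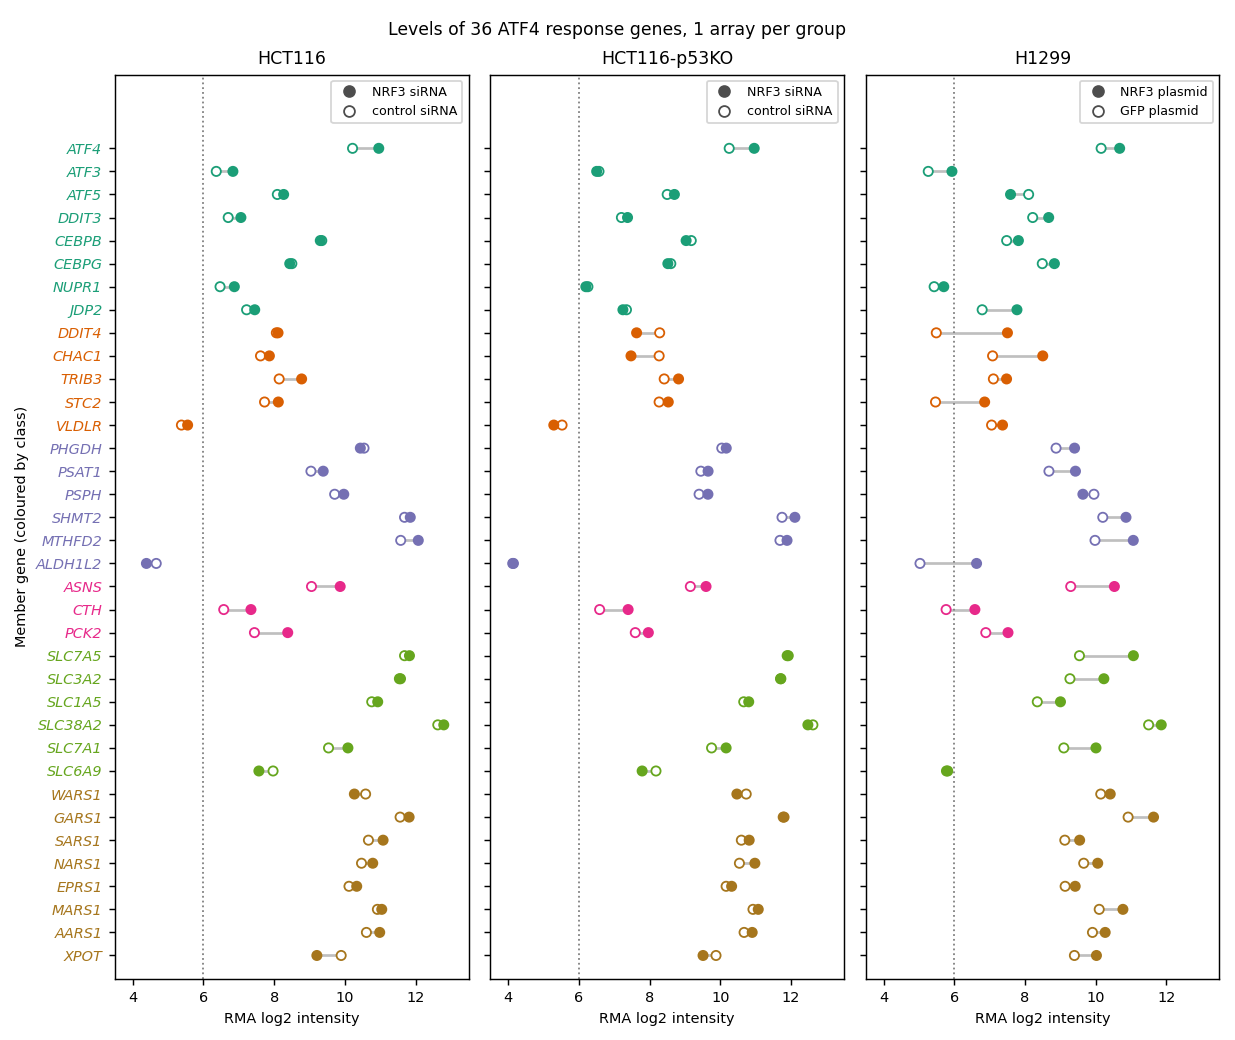
RMA log2 intensity (horizontal axis) of the 36 members (rows, coloured by class) in HCT116, HCT116-p53KO and H1299. Filled circles are the NRF3 siRNA or NRF3 plasmid array, open circles the control siRNA or GFP array, 1 array each with no error bars, and the dotted line marks 6. The filled circle lies to the right for nearly every member in H1299, while in the HCT116 lines most circles lie close together.

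The comparisons asked how these genes stood when NRF3 was lowered in a colon line with p53, lowered in the derivative without it, or raised in a lung line. A gene entered a comparison where at least 1 of the 2 arrays reached 6, and 1.5-fold (0.58 on the log2 scale) was the size counted. In H1299 with NRF3, 33 members passed, 31 were higher than with GFP, and 18 were at least 1.5-fold higher, against 4.82% of all 11304 genes. None was 1.5-fold lower, against 4.2% of all genes. At 2-fold or more 7 members were higher, against 0.681% of all genes (none was 2-fold lower, against 1.14%), and the median difference of the members that passed was 0.63, against 0.00 for all genes. DDIT4, STC2, ALDH1L2 and CTH passed only through the NRF3 array, so these had to be higher. All of them are among the 18 counted at 1.5-fold, and DDIT4, STC2 and ALDH1L2 are among the 7 at 2-fold. Both counts thus rest in part on genes whose direction the filter fixed. Without any filter 19 of 36 members were 1.5-fold higher, against 3.56% of all genes. That count still holds the same genes with a level under 6, so it is no check on them.

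After NRF3 siRNA in HCT116 the differences were smaller. Of 34 members that passed, 27 were higher than with control siRNA, with a median of 0.25 against 0.01 for all 14034 genes. At 1.5-fold 5 were higher, against 2.71% of all genes, and 1 was lower, against 6.02%. In HCT116-p53KO 22 of 34 were higher, with a median of 0.15 against 0.00 for 13680 genes. There 2 members were 1.5-fold higher, against 3.63% of all genes, and 2 were 1.5-fold lower, against 2.38%, shares close to those of all genes. No member reached 2-fold in either direction, against 0.221% of all genes higher and 1.03% lower in HCT116, and 0.278% higher and 0.431% lower in HCT116-p53KO.

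**Figure D2:**
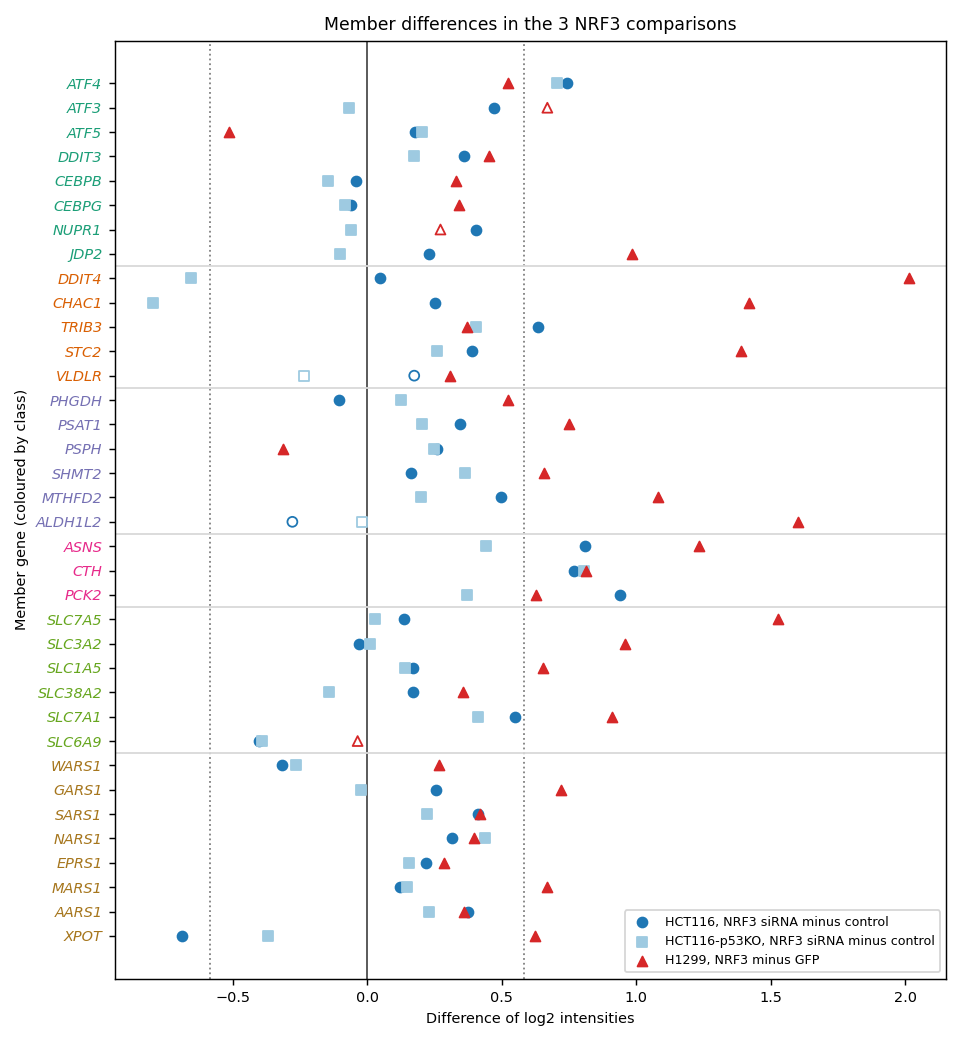
Difference of log2 intensities (horizontal axis) for each member (rows, coloured and separated by class): circles for NRF3 siRNA minus control siRNA in HCT116, squares for the same in HCT116-p53KO, triangles for NRF3 minus GFP in H1299. Open symbols did not reach 6 on either array, and dotted lines mark 1.5-fold; the H1299 triangles reach 2.01 (DDIT4), whereas the largest siRNA difference is 0.94 (PCK2).

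Among the transcription factors, ATF4 was higher in all 3 comparisons. Its level was 10.96 with NRF3 siRNA and 10.22 with control siRNA in HCT116, 10.96 and 10.25 in HCT116-p53KO, and 10.68 with NRF3 and 10.15 with GFP in H1299. The differences were 0.74, 0.71 and 0.52, so both siRNA arrays and the NRF3 plasmid array lay above their controls. A second ATF4 probe set gave 0.77 in HCT116 but only 0.42 in HCT116-p53KO and 0.12 in H1299, so the size in those lines depends on the probe set. The transcript level of ATF4 does not show its protein, since the gene is controlled chiefly at translation.

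DDIT3, which encodes CHOP, was higher by 0.36 in HCT116 (7.06 against 6.70), by 0.17 in HCT116-p53KO (7.38 against 7.20) and by 0.45 in H1299 (8.67 against 8.22). ATF3, a stress-induced repressor of the same family, was at 6.83 with NRF3 siRNA and 6.36 with control siRNA in HCT116, at 6.50 and 6.57 in HCT116-p53KO, and under 6 on both H1299 arrays (5.93 with NRF3, 5.26 with GFP). NUPR1, a small chromatin-associated stress protein, had the same order, 6.87 and 6.47 in HCT116 but 6.20 and 6.26 in HCT116-p53KO. Both were thus higher in HCT116 alone of the HCT116 lines, with levels near the filter.

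JDP2, a repressor that dimerises with JUN, differed most in H1299, where it was 1.98-fold higher (7.77 with NRF3, 6.79 with GFP), beside 0.23 in HCT116 and -0.10 in HCT116-p53KO. Of the C/EBP partners of ATF4, CEBPB differed by -0.04, -0.15 and 0.33 and CEBPG by -0.06, -0.08 and 0.34 in HCT116, HCT116-p53KO and H1299. ATF5, a second factor of the ATF4 subgroup that is itself controlled at translation, was the only transcription factor lower with NRF3 in H1299, at 7.59 against 8.10 with GFP (-0.51), and it was higher by 0.18 and 0.20 after siRNA. By class, 5 of the 6 factors that passed were higher in H1299, with 1 at 1.5-fold, against 4.82% of all genes. In HCT116 6 of 8 were higher and in HCT116-p53KO 3 of 8, with 1 (ATF4) at 1.5-fold in each line. Of all genes 2.71% and 3.63% were 1.5-fold higher in these lines.

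Of the stress effectors, DDIT4, an inhibitor of mTORC1 also known as REDD1, had the largest member difference in H1299 and was 4.04-fold higher, at 7.50 with NRF3 and 5.49 with GFP, and ranked 10 among 11304 genes. In HCT116 it stood at 8.11 with NRF3 siRNA and 8.06 with control siRNA, and in HCT116-p53KO at 7.63 and 8.29. DDIT4 was thus 1.03-fold higher in HCT116 and 1.57-fold lower in HCT116-p53KO, and the size in H1299 is uncertain because the GFP array lay under 6.

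CHAC1, which cleaves glutathione, had the same pattern. Its level was 8.50 with NRF3 and 7.08 with GFP in H1299, 7.86 with NRF3 siRNA and 7.61 with control siRNA in HCT116, and 7.47 and 8.27 in HCT116-p53KO. It was thus 2.67-fold higher in H1299, 1.19-fold higher in HCT116 and 1.74-fold lower in HCT116-p53KO. CHAC1 and DDIT4 were the 2 members at least 1.5-fold lower in HCT116-p53KO, ranking 132 and 235 from the lowest of 13680 genes.

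STC2, the secreted glycoprotein stanniocalcin 2, was higher in all comparisons, at 6.86 against 5.47 in H1299 (2.62-fold, with the GFP array under 6), 8.12 against 7.73 in HCT116 and 8.53 against 8.27 in HCT116-p53KO. TRIB3, a pseudokinase that binds AKT and dampens ATF4, differed most in HCT116 and least in H1299. It was 1.55-fold higher in HCT116 (8.78 against 8.14), 1.33-fold in HCT116-p53KO (8.82 against 8.41) and 1.29-fold in H1299 (7.48 against 7.11). VLDLR was higher by 0.31 in H1299 and under 6 elsewhere.

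Serine and folate genes had a larger median difference in H1299 than after siRNA, but most were above control in every comparison. Higher were 4 of 5 that passed in HCT116, 5 of 5 in HCT116-p53KO and 5 of 6 in H1299. Serine is made from 3-phosphoglycerate by PHGDH, PSAT1 and PSPH, and SHMT2, MTHFD2 and ALDH1L2 carry its one-carbon unit through the mitochondrial folate cycle. MTHFD2 stood at 11.06 with NRF3 and 9.98 with GFP in H1299 (2.12-fold), at 12.08 with NRF3 siRNA and 11.58 with control siRNA in HCT116, and at 11.89 and 11.69 in HCT116-p53KO. A second MTHFD2 probe set gave 0.96, 0.35 and 0.03 in the same order, so the siRNA difference in HCT116-p53KO is not seen with it.

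ALDH1L2 was at 6.63 with NRF3 and 5.03 with GFP in H1299, a 3.03-fold difference whose size is uncertain because the GFP array lay under 6. PSAT1 was 1.68-fold higher (9.43 against 8.68) and SHMT2 1.58-fold higher (10.86 against 10.20), while PHGDH was 1.44-fold higher (9.40 against 8.88). PSPH alone of the serine enzymes was lower in H1299, at 9.64 against 9.95, and its second probe set gave -0.27. In this class 4 of 6 members that passed were thus 1.5-fold higher in H1299, against 4.82% of all genes, with a median of 0.70. ALDH1L2, 1 of these 4, passed only through the NRF3 array, so it had to be higher. It did not pass in HCT116 or HCT116-p53KO, where none of the other 5 was 1.5-fold higher or lower. Their medians there were 0.26 and 0.20. In the same order PSAT1 was higher by 0.35 and 0.20, SHMT2 by 0.16 and 0.36, and PSPH by 0.26 and 0.25. The second PSPH probe set gave 0.45 and 0.20, and PHGDH differed by -0.10 and 0.13. Among all genes 2.71% were higher and 6.02% lower in HCT116, and 3.63% and 2.38% in HCT116-p53KO. A count of 0 of 5 is close to those shares.

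Of the remaining amino acid enzymes, all 3 measured members were higher in each comparison. CTH, cystathionine gamma-lyase, which makes cysteine from methionine-derived cystathionine, was at 7.34 with NRF3 siRNA and 6.57 with control siRNA in HCT116, at 7.39 and 6.59 in HCT116-p53KO, and at 6.58 with NRF3 and 5.77 with GFP in H1299. The differences were 0.77, 0.81 and 0.81. In H1299 CTH passed only through the NRF3 array and its GFP level was under 6, so its size there is uncertain and it had to be higher. Within that limit, CTH was the only member at least 1.5-fold higher in all 3 comparisons, which share no array. Over the 10856 genes that passed in all 3, 9 did so (0.0829%).

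ASNS, asparagine synthetase, was at 9.87 with NRF3 siRNA and 9.06 with control siRNA in HCT116 (1.75-fold), at 9.60 and 9.15 in HCT116-p53KO (1.36-fold), and at 10.53 with NRF3 and 9.29 with GFP in H1299 (2.35-fold). PCK2, mitochondrial phosphoenolpyruvate carboxykinase, was the member that differed most in HCT116, at 8.38 against 7.44 (1.92-fold, rank 50 of 14034). It was 1.29-fold higher in HCT116-p53KO (7.97 against 7.60) and 1.55-fold higher in H1299 (7.52 against 6.89). Both enzymes therefore lay above control on every perturbed array, with smaller siRNA differences in HCT116-p53KO than in HCT116 that cannot be tested with 1 array per group.

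Most transporters differed more in H1299 than after siRNA in the HCT116 lines. SLC7A5 (LAT1) and SLC3A2 (CD98) form the exchanger for leucine and other large neutral amino acids. SLC7A5 was at 11.07 with NRF3 and 9.54 with GFP in H1299, 2.88-fold higher and rank 23 of 11304, but at 11.83 and 11.69 in HCT116 and 11.92 and 11.89 in HCT116-p53KO for NRF3 and control siRNA. Its partner SLC3A2 was at 10.23 against 9.27 in H1299 (1.94-fold), with differences of -0.03 and 0.01 after siRNA. The 2 chains were thus higher together in H1299 and within 0.14 of control after siRNA.

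SLC7A1, the cationic amino acid transporter CAT1, was higher in every comparison, by 0.55 in HCT116 (10.09 against 9.54), 0.41 in HCT116-p53KO (10.17 against 9.75) and 0.91 in H1299 (10.01 against 9.10). The glutamine transporter SLC1A5 was higher by 0.66 in H1299 (0.29 with its second probe set) and by 0.17 and 0.14 after siRNA. SLC38A2 differed by 0.36 in H1299, 0.17 in HCT116 and -0.14 in HCT116-p53KO. The glycine transporter SLC6A9 was lower after siRNA in both HCT116 lines, at 7.57 against 7.97 and 7.79 against 8.18, and under 6 in H1299. Of 5 transporters that passed in H1299, 4 were 1.5-fold higher, against 4.82% of all genes. Of 6 in each HCT116 line, none was 1.5-fold higher or lower. Among all genes 2.71% were higher and 6.02% lower in HCT116, and 3.63% and 2.38% in HCT116-p53KO. A count of 0 of 6 is close to those shares.

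The aminoacyl-tRNA synthetases load tRNAs with their amino acids. In H1299 all 7 and the tRNA exporter XPOT were higher with NRF3, by 0.27 to 0.72. At 1.5-fold 3 were higher, against 4.82% of all genes. These were GARS1 for glycine (11.64 against 10.92), MARS1 for methionine (10.77 against 10.10) and XPOT (10.02 against 9.40). After siRNA the synthetases for serine, asparagine, glutamate and proline, methionine and alanine (SARS1, NARS1, EPRS1, MARS1 and AARS1) were higher by 0.12 to 0.41 in HCT116 and by 0.15 to 0.44 in HCT116-p53KO. GARS1 differed by 0.26 and -0.02, and the tryptophan enzyme WARS1, which is also known as an interferon-induced gene, was lower with NRF3 siRNA in both lines (-0.32 and -0.26).

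XPOT, like WARS1, was lower after siRNA in both HCT116 lines. It was at 9.21 with NRF3 siRNA and 9.90 with control siRNA in HCT116 (1.61-fold lower, the only member lower at 1.5-fold there), at 9.51 and 9.88 in HCT116-p53KO, and higher in H1299. XPOT, WARS1, CEBPB and CEBPG were the 4 of 31 members, among those that passed in all 3 comparisons, that were lower after siRNA in both lines and higher with NRF3 in H1299 (12.9%, against 16.9% of all genes). Members higher in all 3 numbered 18 of 31 (58.1%, against 15.1% of all genes). STC2 and CTH among the 18, and DDIT4 among the 31, entered H1299 only through the NRF3 array. Their direction in H1299 was therefore fixed by the filter. ATF5 and PSPH were higher after siRNA in both lines and lower with NRF3.

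**Figure D3:**
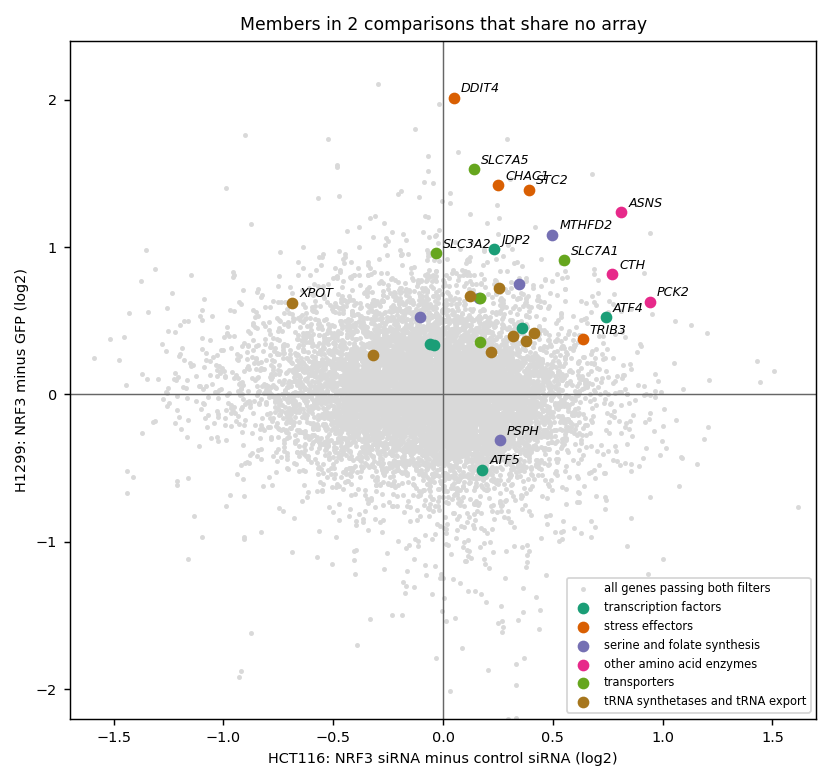
Difference in H1299 (NRF3 minus GFP, vertical axis, log2) against difference in HCT116 (NRF3 siRNA minus control siRNA, horizontal axis, log2) for 31 members coloured by class and, in grey, all 10938 genes that passed both filters, of which 16 lie outside the axes. Most members lie in the upper right quadrant, with PCK2, ASNS and CTH farthest to the right, DDIT4 and SLC7A5 highest on the vertical axis, and XPOT at the upper left.

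The siRNA contrast was replicated only across lines, so a limma fit with cell line as a block was made over the 4 HCT116-family arrays and all 14148 genes. The p-values rest on how far the siRNA effect differed between these 2 cell lines, pooled over all genes, with 1 culture of each group. A p-value therefore follows the size of the mean change. It does not measure how well the 2 lines matched for that gene. Of 34 members tested, 6 rose with NRF3 siRNA, against 4.45% of all genes, and 1 fell, against 5.43%. CTH rose by 0.79 (adjusted p = 6.8e-05 in limma), ATF4 by 0.72 (adjusted p = 0.000328), PCK2 by 0.66 (adjusted p = 0.00142) and ASNS by 0.63 (adjusted p = 0.00257), each ± 0.16 (SE). TRIB3 rose by 0.52 (adjusted p = 0.0185 in limma) and SLC7A1 by 0.48 (adjusted p = 0.0347), and XPOT fell by 0.53 (adjusted p = 0.0167). All 7 differed in the same direction in both lines. Genes called for a large mean change are likely to do so, and this is not separate support.

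These calls depend on how the spread is estimated. The fit left 1 residual degree of freedom, and limma gave all genes a common SE. With the prior taken from a limma fit of all 6 arrays 0 members and 0 genes were called (8 members and 1822 genes at an unadjusted p under 0.05), and adjusted p for the 7 members lay between 0.133 and 0.278. With loess-corrected values only ATF4 and CTH rose.

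The siRNA difference in HCT116-p53KO was subtracted from that in HCT116 to set the lines side by side. The result was above 0 for 24 of 34 members, with a median of 0.12, against -0.05 for all 13566 genes. The stress effectors had the highest class median, all 4 being above 0 with a median of 0.46, led by CHAC1 (1.05) and DDIT4 (0.70), the 2 members past 1.5-fold. Over all genes 2.15% were past 1.5-fold above 0 and 4.18% below, so the members' count was close to that of all genes. PCK2 (0.57), ATF3 (0.54) and NUPR1 (0.46) followed, while ATF4 (0.03), CTH (-0.04) and SLC6A9 (-0.01) were nearly equal in both lines. The tRNA genes had a median of 0.02. With 1 array per group these differences between lines cannot be tested.

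HCT116-p53KO and HCT116 were next compared without NRF3 siRNA, in a comparison that shares its arrays with those above. On control siRNA, 26 of 34 members were higher in HCT116-p53KO, with a median of 0.10 against 0.01 for all 13827 genes. CHAC1 was 1.5-fold higher (8.27 in HCT116-p53KO, 7.61 in HCT116), against 0.868% of all genes, and no member was 1.5-fold lower, against 3.45%. At 2-fold the member counts were 0 higher, against 0.195% of all genes, and 0 lower, against 1.3%. STC2 (0.54), DDIT3 (0.50), PSAT1 (0.41) and ATF5 (0.41) followed, and PHGDH (-0.50) and PSPH (-0.31) were lower. ATF4 differed by 0.04. On NRF3 siRNA the lines had a median member difference of -0.01, with no member 1.5-fold higher, against 5.6% of all genes, and 1 lower, NUPR1 (-0.68), against 4.75%. CHAC1, higher in HCT116-p53KO on control siRNA, was lower there on NRF3 siRNA, at 7.47 against 7.86.

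The 12 members with the TGATGNAA core were set beside the 20 with a window but without it. In H1299 8 of 11 with the core that passed were 1.5-fold higher with NRF3, with a median of 0.72, against 8 of 19 without it, with a median of 0.52; of all genes 4.82% were. DDIT4, STC2 and CTH were among the 19 only through the NRF3 array. After siRNA 1 of 12 with the core and 4 of 19 without it were 1.5-fold higher in HCT116 (2.71% of all genes). In HCT116-p53KO 0 of 12 and 2 of 19 were (3.63% of all genes). These counts are small, and 1 and 0 of 12 are close to the shares of all genes. After siRNA the medians with and without the core were 0.25 and 0.22 in HCT116 and 0.08 and 0.17 in HCT116-p53KO, with overlapping ranges.

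**Figure D4:**
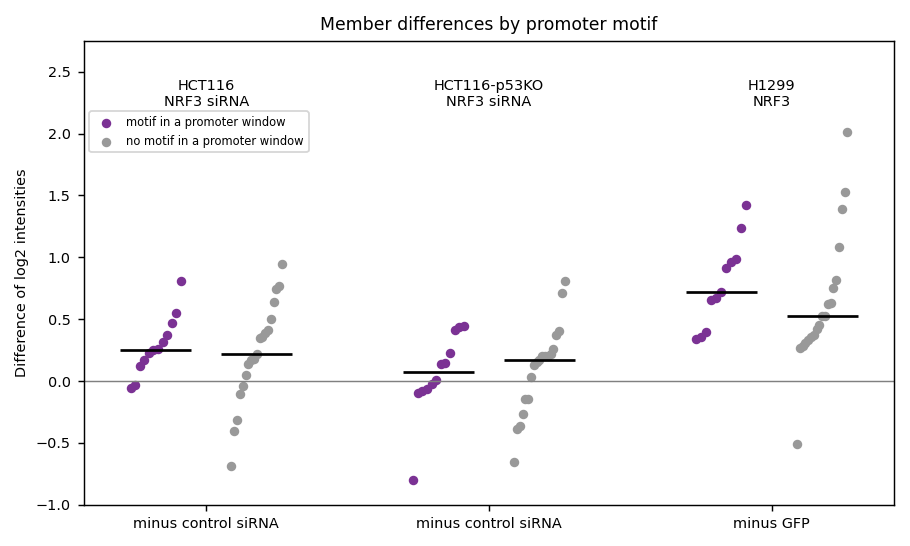
Difference of log2 intensities (vertical axis) for members whose promoter windows hold the TGATGNAA core (purple) or do not (grey), in each NRF3 comparison; a point is 1 member that passed the filter and a bar is the median. In H1299 the medians are 0.72 with the core and 0.52 without it, and the ranges overlap in every comparison.

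Genes around the ATF4 response were counted in 7 further lists of 119 genes. For each list below, the shares of all genes at 1.5-fold are the background. These were 2.71% higher and 6.02% lower in HCT116, 3.63% and 2.38% in HCT116-p53KO, and 4.82% and 4.2% in H1299. The lists are short and most counts are close to those shares, so a gene named does not speak for its list. The eIF2alpha kinases, eIF2B subunits and phosphatase regulators lie upstream of ATF4. Of 18, 1 was 1.5-fold higher and 1 lower in HCT116, 1 and 0 in HCT116-p53KO, and 2 and 1 in H1299. PPP1R15A (GADD34), the feedback subunit that directs dephosphorylation of eIF2alpha, was 1.76-fold higher in HCT116 (8.66 against 7.84) and 1.60-fold higher in HCT116-p53KO (8.65 against 7.97), and differed by 0.13 in H1299. DELE1, which relays mitochondrial stress to an eIF2alpha kinase, was 2.03-fold lower in H1299 (7.20 against 8.22) and higher by 0.38 and 0.44 after siRNA.

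Among 17 genes of amino acid and mTORC1 sensing, 1 was 1.5-fold higher and 2 lower in HCT116, 1 of 16 higher and 1 lower in HCT116-p53KO, and 1 of 16 higher in H1299. That gene was SESN2, a leucine sensor and ATF4 target, at 7.28 with NRF3 and 6.44 with GFP. RRAGC, a Rag GTPase that recruits mTORC1 to lysosomes, was 2.55-fold lower in HCT116 (7.53 against 8.88) and 2.24-fold lower in HCT116-p53KO (7.61 against 8.77). Of other amino acid transporters, 2 of 11 were 1.5-fold higher in H1299 and 1 lower. These were the cystine importer SLC7A11 (8.59 against 6.79, 3.49-fold) and SLC1A4, which carries alanine, serine and cysteine (7.44 against 6.45), and neither was 1.5-fold higher after siRNA. In this list 0 of 13 were higher and 2 lower in HCT116, and 2 were higher and 1 lower in HCT116-p53KO.

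Other cytosolic tRNA synthetases were higher in H1299 in 10 of 12 members, with 1 at 1.5-fold, the threonine enzyme TARS1 (10.42 against 9.22, 2.30-fold), and a median of 0.16, against 0.41 for the member class. After siRNA their median was 0.09 in HCT116, against 0.24 for the member class. In HCT116-p53KO it was 0.22, against 0.15, so the members were not the higher set there. The histidine enzyme HARS1 was the 1 of 12 at 1.5-fold in HCT116 (11.44 against 10.66), and 0 reached it in HCT116-p53KO. Mitochondrial synthetases, a separate set of nuclear genes, had medians of -0.07 in H1299, -0.11 in HCT116 and 0.09 in HCT116-p53KO over 16 genes, with 1 higher and 1 lower, 0 and 0, and 1 and 0 at 1.5-fold. Other folate enzymes had 1 of 9 higher (MTHFD1L, 9.58 against 8.93) and 1 lower (the glycine cleavage enzyme GLDC, 9.37 against 10.13) in H1299. In HCT116 1 of 11 was higher and in HCT116-p53KO 2 of 11, with none lower. The medians of these folate enzymes were 0.10 in H1299, 0.15 in HCT116 and 0.23 in HCT116-p53KO. Those of the serine and folate members were 0.70, 0.26 and 0.20 in the same order.

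Endoplasmic reticulum chaperones and unfolded protein response genes were also counted beside the members. In H1299 none of 21 was 1.5-fold higher or lower, 5 were above 0, and the median was -0.02. Of all genes 4.82% were higher and 4.2% lower there, so a count of 0 of 21 is close to those shares. The chaperones CALR (-0.42), HSPA5 (-0.35), known as BiP, and PDIA4 (-0.35) differed most. After siRNA 1 of 22 was 1.5-fold higher in each HCT116 line, the oxidase ERO1A (10.22 against 9.49 in HCT116, 10.50 against 9.82 in HCT116-p53KO), and none was lower.

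**Figure D5:**
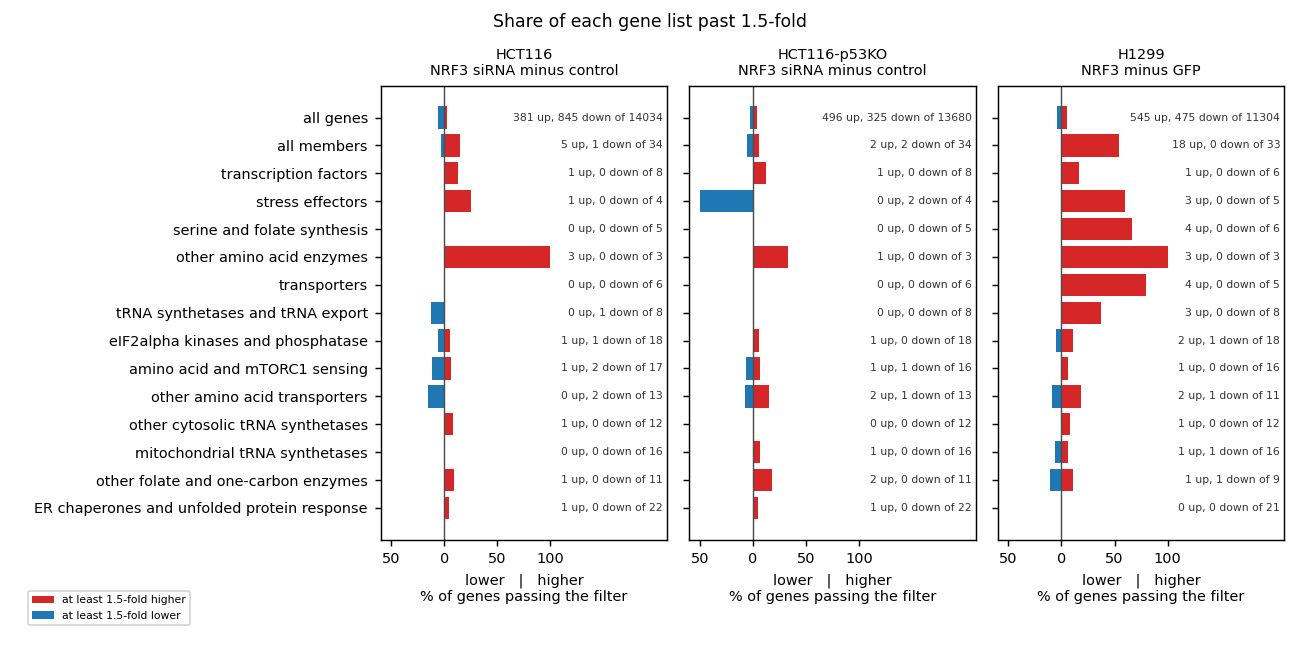
Percentage of genes passing the filter that were at least 1.5-fold higher (red, to the right) or lower (blue, to the left), for all genes, the members, each member class and each further list, in HCT116, HCT116-p53KO and H1299; counts are printed at the right. In H1299 54.5% of the members that passed were higher, against 4.82% of all genes. Of these members DDIT4, STC2, ALDH1L2 and CTH passed only through the NRF3 array, so they had to be higher. Among 21 chaperone genes 0 were higher, a count close to the share of all genes.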

How the data were processed

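The authors deposited log2 intensities for 33297 probe sets. The submitters' processing notes name RMA and Affymetrix Expression Console. RMA corrects background, quantile-normalizes and summarises probes, which can shrink a shift common to many genes. No source used here states which arrays were processed as 1 set. In the array annotation 19460 probe sets had 1 gene symbol, 1754 several, and 12083 were unlisted. Entrez numbers of 19429 matched RefSeq GRCh38.p14, which changed 0 symbols. Differences of log2 values were taken where 1 or both arrays reached 6. limma 3.58.1 in R 4.3.3 (two-sided, Benjamini-Hochberg threshold 0.05) was fitted to the 4 HCT116-family arrays, blocked on line, after tests on simulated data. The number of arrays limits the precision. Other steps used Python 3.11.15. All members could be named, and of each further list up to 3 genes with the largest absolute difference per NRF3 comparison. Members and lists were chosen with earlier results of these data known. Alternatives were no filter, a filter of 7, 2-fold, averaging the probe sets of a gene, quantile normalization over 6 arrays, loess correction (span 0.4), other estimates of spread and an adjusted p of 0.10. For the difference between the HCT116 lines, the alternatives, and the description of the lines on NRF3 siRNA, were chosen after seeing the data. By RefSeq coordinates 7 members overlap another protein-coding gene, DDIT3 and MARS1 each other.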

Additional observations from a re-analysis of the deposited data

Results flagged for a closer look

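CHAC1 and DDIT4 were the members whose siRNA difference had opposite signs in the HCT116 lines and lay at least 1.5-fold apart. For CHAC1 the difference was -0.80 in HCT116-p53KO and 0.25 in HCT116, which makes HCT116 minus HCT116-p53KO 1.05. For DDIT4 the difference was -0.65 and 0.05, which makes it 0.70. DDIT4 was thus nearly unchanged in HCT116, where its sign carries little weight. These differences between lines were not tested, since each group had 1 array.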

How the results depend on the processing

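Counts of members at 1.5-fold and their medians kept their direction under every alternative run, and changed by over 1.5 times only as follows. At 2-fold, 0 members were higher and 0 lower in HCT116 and in HCT116-p53KO, 7 were higher in H1299, and 0 were higher in HCT116-p53KO against HCT116 on control siRNA. When probe sets of a gene were averaged 1 member, CTH, was 1.5-fold higher in HCT116-p53KO. Of the limma calls, 0 rose and 0 fell with each gene's own residual (3 genes called in all; 5 members and 1086 genes at an unadjusted p under 0.05) or with the prior of the 6-array fit, and 2 rose and 0 fell after loess correction. Without a filter SLC7A1 missed the threshold (adjusted p = 0.0675 in limma). A median was taken as moved at 0.1 or more. The siRNA fit is paired by line; the arrays carry no other replicate numbers. Values under 6 are near background, which limits DDIT4, STC2, ALDH1L2 and CTH in H1299.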

Other observations

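Genes outside the member list whose promoter windows hold the TGATGNAA core were counted after the members had been seen. In H1299 21 of 219 such genes (9.59%) were at least 1.5-fold higher with NRF3, against 408 of 8867 genes without the core (4.60%), and the medians were 0.03 and 0.00. After NRF3 siRNA the shares with and without the core were 2.39% and 2.69% in HCT116 and 4.66% and 3.87% in HCT116-p53KO. These shares come from 1 array per group and were not tested.

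Beside CTH, the genes at least 1.5-fold higher in all 3 NRF3 comparisons were ARHGAP18, CCNE2, GTF2H3, MICAL2, MOCOS, PDE8A, PTPN11 and ZNF45, named after their values were seen. PTPN11, the phosphatase SHP2, differed by 0.63 in H1299, 0.69 in HCT116 and 0.91 in HCT116-p53KO, and MICAL2, an actin-oxidising enzyme, by 0.78, 0.71 and 0.83 in the same order. None of the 8 is a member or belongs to the further lists.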
